A study of Mus musculus with 93 samples.

Results

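Nkx6-3 is a homeobox transcription factor gene whose RNA was lower than in wild type in both mutant groups of this series of mouse embryonic stem cell libraries. It is 1 of 33924 gene names in each deposited count table. It was chosen by these same RNA values, namely its fall in Ring1b I53A cells and its fall in libraries labelled as linker histone H1 quadruple knockout. Its fold changes are therefore given as descriptions with no test, and tests are kept for its paralogs, its neighbours and other genes.

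The cells were of the mouse embryonic stem cell line R1, grown in medium with serum and the cytokine LIF, which holds such cells undifferentiated. RNA was sequenced from 12 libraries in 2 sets, and the chromatin assays that make up the rest of the 93 samples were not analysed here. Set 1 held 3 wild-type libraries and 3 libraries of genotype Ring1b I53A. Set 2 held 3 wild-type libraries and 3 libraries of genotype H1b/c/d/e-QKO. I53A is an amino acid change in RING1B, and the labels do not say whether it is a single clone. QKO stands for a knockout of the linker histone genes H1b, H1c, H1d and H1e. Nothing in the labels ties a replicate to a culture of its own, so a p-value here reflects the spread among libraries and that spread may be purely technical.

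NKX6 proteins are homeodomain factors that mostly repress transcription, and they recruit Groucho/TLE corepressors to do so. Nkx6-3 is best known in the mouse stomach, where it is expressed in the antral epithelium and sets the balance between gastrin and somatostatin cells, and it is also expressed in the hindbrain. Its paralogs Nkx6-1 and Nkx6-2 pattern the ventral neural tube and act in the developing pancreas. RING1B, encoded by Rnf2, is the catalytic ubiquitin ligase of Polycomb repressive complex 1, which marks histone H2A at silent developmental genes. Linker histone H1 binds the nucleosome and compacts chromatin.

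Depth ranged from 12585621 to 23378930 counts per library. In set 1, replicate 3 of both groups was the shallowest of its group and stood apart from replicates 1 and 2, where a chi-square of the counts divided by its degrees of freedom came to 23.0 to 29.7, against 3.02 and 4.25 between the other replicates of a group. Rnf2 RNA was at 166 to 182 CPM in set 1 wild type and was lower in I53A, at 81.1 to 93.5 CPM, although a point mutation need not lower it, so the label could not be checked from it. Rnf2 was also slightly lower in the libraries labelled QKO, at 182 to 189 CPM against 199 to 220 CPM in their wild type. In set 2, none of Hist1h1b, Hist1h1c, Hist1h1d and Hist1h1e was called lower in the libraries labelled QKO. Hist1h1b had 53 to 72 counts there against 2 to 9 in wild type, Hist1h1c 129 to 202 against 143 to 205, Hist1h1d 5 to 15 against 3 to 14, and Hist1h1e, too low to be tested, 3 to 12 against 0 to 6. A knockout need not lower the counted RNA of its gene, so this label too could not be checked from these counts. Those libraries are therefore named by their label throughout. The pluripotency factor Pou5f1 was at 1029 to 1385 CPM across all 12 libraries, and none of the 18 embryonic stem cell markers present in the tables was at 0 in a whole group. CPM here is the count scaled to library size, with TMM scaling over the 12 libraries.

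In mm9, the build of the deposited tables, Nkx6-3 lies on the plus strand of chromosome 8 from 24263743 to 24269420. The tables counted 3 exons. They run from 24263743 to 24264441, from 24266673 to 24266842 and from 24268054 to 24269420, with lengths of 699, 170 and 1367 bases and 2236 counted bases in all. No other gene name overlaps this span, so reads of a gene on the opposite strand do not enter its count under the deposited annotation.

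Nkx6-3 had 855 counts in the wild-type libraries of set 1, of which 297 were in replicate 2, 255 in replicate 3 and the rest in replicate 1. The I53A libraries had 27, 30 and 17 counts. The set 2 wild-type libraries had 85, 99 and 89 counts, and each of the 3 libraries labelled QKO had 8 counts, with an exact Poisson interval of 3.45 to 15.76 counts. Every mutant library was far below every wild-type library of its set, and the groups did not overlap in either set.

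On the scale of CPM over the 12 libraries, the Nkx6-3 level in set 1 wild type was 16.1, 15.7 and 18.2, a mean of 16.7 ± 1.35 (SD, n = 3). In I53A it was 1.43, 1.62 and 1.27 CPM, a mean of 1.44 ± 0.174 (SD, n = 3). In set 2 wild type the level was 5.20, 5.78 and 4.37 CPM, a mean of 5.11 ± 0.708 (SD, n = 3), and in the libraries labelled QKO it was 0.360, 0.524 and 0.395 CPM, a mean of 0.426 ± 0.0864 (SD, n = 3). The order was thus wild type of set 1, wild type of set 2, I53A and last QKO, and no neighbouring groups in it overlapped. The level in the libraries labelled QKO was still above the value of 3 counts, which corresponds to 0.135 to 0.196 CPM there.

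**Figure D1:**
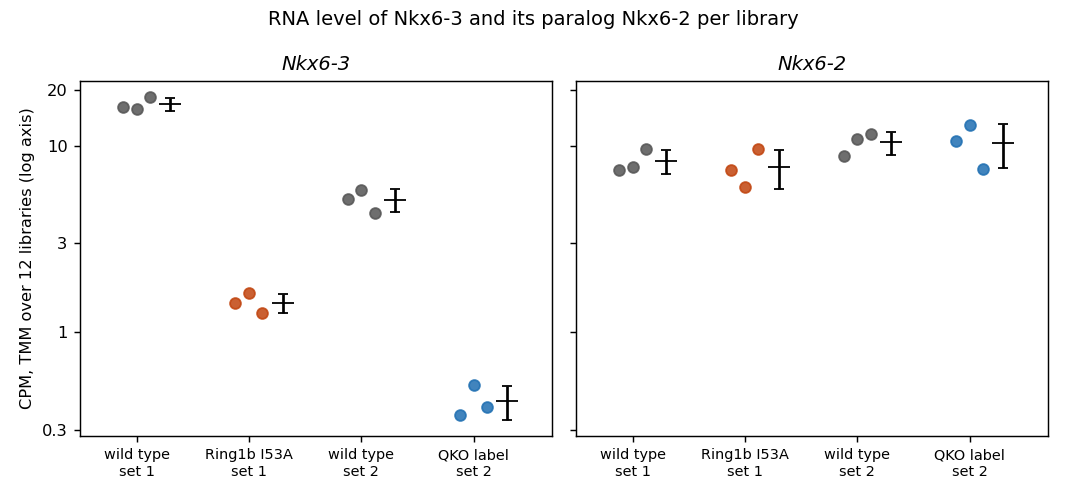
RNA level per library of Nkx6-3 (left) and its paralog Nkx6-2 (right) in CPM with TMM scaling over 12 libraries, on a log axis. Points are libraries in replicate order, and the bar beside each group is its mean and SD (n = 3). Nkx6-3 spans 0.360 to 18.2 CPM with no overlap between groups, while the 4 groups of Nkx6-2 overlap between 6.04 and 12.97 CPM.

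The steps in that order were of similar size. Summed over libraries, the Nkx6-3 level in set 1 wild type was 3.26 times that in set 2 wild type (95% counting interval 2.84 to 3.75). The level in set 2 wild type was 3.49 times that in I53A (interval 2.69 to 4.57), and I53A was 3.50 times QKO (interval 2.18 to 5.80). These intervals cover counting error only, and the sets differ in more than genotype, so a ratio across sets cannot be told apart from a difference between experiments. The difference between the wild-type groups was -1.53 on the log2(mean CPM + 1) scale, and 957 of 14589 genes tested in both sets (6.56%) differed by at least as much.

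Within set 1, the Nkx6-3 level was 11.5 times higher in wild type than in I53A (95% counting interval 9.04 to 14.8), with a fitted log2 fold change of -3.53 ± 0.16 (SE). Within set 2, it was 12.2 times higher in wild type than in the libraries labelled QKO (interval 8.00 to 19.3), with a fitted log2 fold change of -3.59 ± 0.29 (SE). The fitted difference between these 2 changes was 0.08 ± 0.26 (SE) on the log2 scale. In bulk libraries, fewer cells with Nkx6-3 RNA and less Nkx6-3 RNA per cell cannot be told apart.

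The spread between mutant libraries was no larger than counting gives. The coefficient of variation of the Nkx6-3 level was 12.1% in I53A and 20.3% in QKO, where counting error alone gives 20.8% and 35.4%. In wild type it was 8.08% in set 1 and 13.8% in set 2, against 5.94% and 10.5% from counting. Replicate 3 of set 1 held the highest wild-type and the lowest I53A level, and that pair alone gave a log2 fold change of -3.86, while replicates 1 and 2 gave -3.40 ± 0.20 (SE). The fall was thus present in the libraries that stood apart and in the others.

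Nkx6-3 ranked 11th from the lowest log2 fold change among 15536 genes tested in set 1 and 3rd from the lowest among 15439 in set 2. In set 1, 17.4% of tested genes were called lower and 18.1% higher at an adjusted p under 0.05 (edgeR quasi-likelihood test, Benjamini-Hochberg adjustment over all genes). In set 2, 29.0% were called lower and 28.7% higher. These fits did not pair libraries. The replicate numbers of set 1 were taken to pair its libraries only in an alternative fit, although replicates 1 and 2 also deviated together across numbers. With the replicate as a block 8798 genes were called in set 1 in place of 5512. Of the 14589 genes tested in both sets, 1138 (7.80%) were called lower in both, and 1815 with that block. Among these 1138 genes the summed fall of Nkx6-3 was the largest. At a threshold chosen after the values were seen, a log2 fold change of -3 or lower was reached by 16 genes in set 1 and 4 in set 2, and Nkx6-3 was the 1 gene that reached it in both. These ranks restate the choice of the gene and carry no test.

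By level, Nkx6-3 ranked lower among the tested genes in each mutant group than in its wild type. Its mean CPM ranked 8376th of 15536 in set 1 wild type and 13707th in I53A. In set 2 it ranked 10713th of 15439 in wild type and 15350th in the libraries labelled QKO. Genes low in both groups of a set were not tested, and these ranks too restate the choice of the gene.

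**Figure D2:**
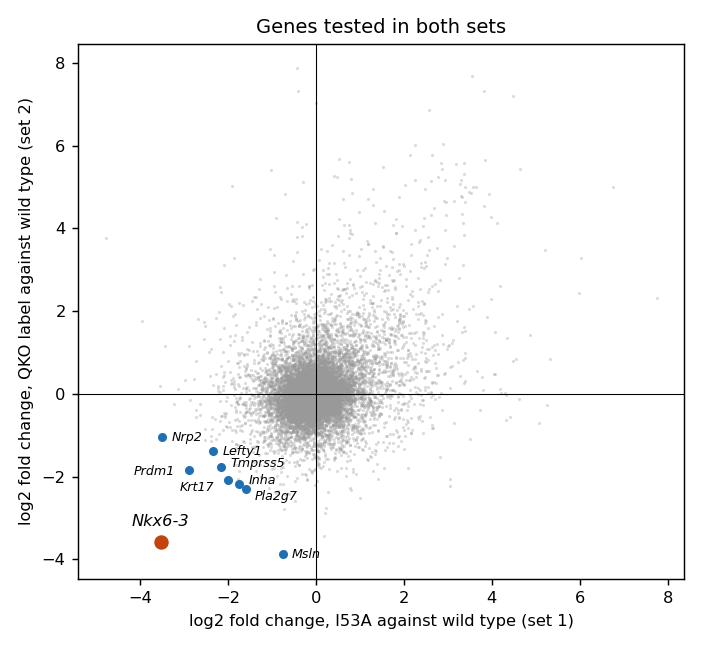
Log2 fold change against wild type in set 1 (x axis, I53A) and set 2 (y axis, QKO label) for the 14589 genes tested in both sets, as grey points. Nkx6-3 is the large point at -3.53 and -3.59, and the smaller labelled points are the 8 genes with a standard symbol and the next largest summed fall among those called lower in both.

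The genes next to Nkx6-3 in that order fell unevenly between the sets. Prdm1, which encodes the repressor BLIMP1, was at 32.0, 36.5 and 43.9 CPM in set 1 wild type and 4.82, 5.12 and 5.29 CPM in I53A, with scaling within the set. In set 2, wild type was at 12.5, 11.9 and 12.8 CPM of Prdm1 and the libraries labelled QKO at 4.06, 3.11 and 3.18 CPM. Its log2 fold changes were -2.88 ± 0.15 (SE) and -1.83 ± 0.14 (SE), and neither pair of groups overlapped.

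Nrp2, a semaphorin and VEGF co-receptor gene, had log2 fold changes of -3.50 in set 1 and -1.04 in set 2. Msln, which encodes the surface protein mesothelin, was at -0.75 on the log2 scale in set 1, and in set 2 it had 46 counts in wild type and 3 in the libraries labelled QKO, a ratio of 16.4 (95% counting interval 5.27 to 82.4). Lefty1, a secreted Nodal inhibitor gene, was at -2.34 and -1.39, and the protease gene Tmprss5 at -2.16 and -1.76.

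The keratin gene Krt17, at -1.99 and -2.09, and the inhibin subunit gene Inha, at -1.74 and -2.18, had values closer to each other in the 2 sets. Pla2g7, which encodes a platelet-activating factor acetylhydrolase, was at -1.59 and -2.30. Krt17 and Pla2g7 each overlap a gene name on the opposite strand, so their unstranded counts are partly uncertain. All 8 genes were chosen by these values, so no p is given.

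The paralog Nkx6-2 did not pass the test in either set. It had 140, 146 and 135 counts in set 1 wild type and 140, 112 and 128 in I53A. The wild-type libraries of set 2 had 143, 187 and 235 counts and those labelled QKO 234, 198 and 152. Wild-type and mutant libraries overlapped in both sets.

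With scaling within each set, the Nkx6-2 level was 8.78 ± 1.34 CPM in wild type and 8.06 ± 1.92 CPM in I53A (SD, n = 3 each), a log2 fold change of -0.13 ± 0.20 (SE, edgeR adjusted p = 0.672). The set 2 level was 9.83 ± 1.36 CPM in wild type against 9.81 ± 2.60 CPM under the QKO label (SD, n = 3 each), a log2 fold change of -0.03 ± 0.15 (SE, edgeR adjusted p = 0.892). From counting alone, the ratio of wild type to mutant lay between 0.956 and 1.27 in set 1 and between 0.919 and 1.16 in set 2. Nkx6-2 lies on chromosome 7 and overlaps Inpp5a on the opposite strand, so some of its reads may belong to that gene.

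Nkx6-1 was at or near 0 throughout, with 3, 0 and 1 counts in set 1 wild type and 0, 1 and 2 in I53A. It had 0 counts in all 3 wild-type libraries of set 2 and 4, 2 and 0 in those labelled QKO. Its level was too low to enter the tests, and no fold is given.

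Per counted exon length, the family member with the most RNA differed between groups. In set 1 wild type, Nkx6-3 was at 7.45 ± 0.602 CPM per kb and Nkx6-2 at 4.33 ± 0.629 (SD, n = 3). In set 2 wild type, Nkx6-3 was at 2.29 ± 0.317 CPM per kb and Nkx6-2 at 5.46 ± 0.765. In I53A, Nkx6-3 was at 0.643 ± 0.0780 CPM per kb against 4.02 ± 0.930 for Nkx6-2, and in the libraries labelled QKO it was at 0.191 ± 0.0386 against 5.42 ± 1.44. Nkx6-3 was thus above Nkx6-2 per kb in set 1 wild type and below it in the other groups.

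The gene nearest to Nkx6-3 is Ank1, which encodes an ankyrin of the membrane skeleton and ends 2774 bases upstream on the same strand. It was at 1.52, 1.62 and 1.30 CPM in set 1 wild type and 1.22, 1.07 and 1.03 CPM in I53A, a log2 fold change of -0.42 ± 0.29 (SE, edgeR adjusted p = 0.291). The Ank1 level in set 2 was 0.986, 1.27 and 1.16 CPM in wild type against 1.15, 0.435 and 0.281 CPM in the libraries labelled QKO, a log2 fold change of -0.81 ± 0.39 (SE, edgeR adjusted p = 0.0740). The groups overlapped in set 2 through QKO replicate 1, and without that library the log2 fold change was -1.69 ± 0.49 (SE, edgeR adjusted p = 0.00398). Ank1 did not pass the test in either set, at 6 to 29 counts per library, a depth at which a modest change may not be detectable. It overlaps Gm15816 on the opposite strand and Gm15815 and Mir486 on its own.

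Downstream, Agpat6, a glycerol-3-phosphate acyltransferase gene, lies 13998 bases away on the opposite strand. It was at 108, 101 and 101 CPM in set 1 wild type and 88.5, 83.4 and 91.4 CPM in I53A, a log2 fold change of -0.23 ± 0.07 (SE, edgeR adjusted p = 0.0351). Set 2 gave 107, 101 and 107 CPM in wild type against 92.1, 89.9 and 91.5 CPM in the libraries labelled QKO, a log2 fold change of -0.20 ± 0.05 (SE, edgeR adjusted p = 0.000320). Agpat6 was lower in both sets without overlap, by a small amount next to the values of Nkx6-3. Its set 1 call was lost without wild-type replicate 1 or 2 or I53A replicate 1 or 2, with edgeR adjusted p between 0.0751 and 0.137.

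Of the 10 nearest tested neighbours, 5 on each side, 8 were called lower in set 1 and 1 higher, beside 17.4% and 18.1% of all tested genes. In set 2, 5 were called lower and 2 higher, beside 29.0% and 28.7%. The 5 called lower in set 2 were also lower in set 1, beside 7.80% of all genes lower in both. The log2 fold changes of the 10 lay between -2.12 and 2.04 in set 1 and between -0.88 and 1.30 in set 2, and none reached the size of the Nkx6-3 values.

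Ap3m2, a subunit gene of the AP-3 vesicle adaptor, was at 26.3, 27.2 and 27.7 CPM in set 1 wild type and 6.15, 6.02 and 6.55 CPM in I53A, a log2 fold change of -2.12 ± 0.11 (SE, edgeR adjusted p = 7.68e-06). Set 2 wild type was at 21.7, 21.7 and 22.2 CPM of Ap3m2 and the libraries labelled QKO at 11.9, 12.7 and 11.2 CPM, a log2 fold change of -0.88 ± 0.09 (SE, edgeR adjusted p = 9.03e-12). The groups of Ap3m2 did not overlap in either set.

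Sfrp1, a secreted Wnt inhibitor gene, fell from 108 ± 8.06 to 31.1 ± 2.22 CPM in I53A (SD, n = 3 each; log2 fold change -1.80 ± 0.09 SE, edgeR adjusted p = 7.80e-06). Set 2 showed a fall from 190 ± 4.76 to 124 ± 2.09 CPM (log2 fold change -0.61 ± 0.04 SE, edgeR adjusted p = 9.89e-18). Plat, which encodes tissue plasminogen activator, rose in both sets, by 2.04 ± 0.24 and 1.26 ± 0.30 on the log2 scale (SE, edgeR adjusted p = 0.000486 and 0.000251).

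Zmat4, a zinc finger gene, moved in opposite directions. It fell from 18.9 ± 2.18 to 8.33 ± 0.443 CPM in I53A (log2 fold change -1.18 ± 0.13 SE, edgeR adjusted p = 0.000368) and rose from 2.13 ± 0.253 to 5.28 ± 0.705 CPM in the libraries labelled QKO (log2 fold change 1.30 ± 0.19 SE, edgeR adjusted p = 9.25e-08). The remaining 4 had smaller values. Myst3, a histone acetyltransferase gene, was at -0.60 and -0.17, and Golga7, a Golgi protein gene, at -0.36 and -0.20, and both were called lower in each set.

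Ikbkb, an NF-kappaB pathway kinase gene, was at -0.52 and -0.01, and Gins4, a DNA replication factor gene, at -0.25 and -0.02, and both were called in set 1. The set 1 call of Gins4 was lost without wild-type replicate 1 or 2 or I53A replicate 1 (edgeR adjusted p of 0.0701 to 0.100), and that of Golga7 without wild-type replicate 1 (edgeR adjusted p = 0.0587). Ikbkb overlaps Gm15346 on the opposite strand.

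The change in I53A differed from that in the libraries labelled QKO for 5 of the 10 neighbours, namely Ikbkb, Ap3m2, Myst3, Sfrp1 and Zmat4. In each of them the I53A change was the more negative. Across all genes 36.1% of 16501 tested were called in this comparison, and the count of 5 in 10 is read against that share.

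**Figure D3:**
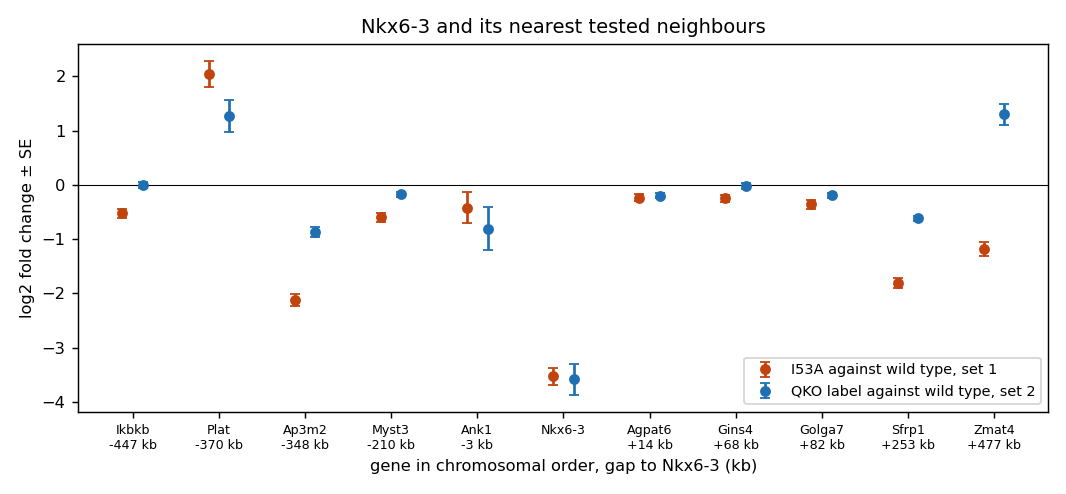
Log2 fold change against wild type with its SE for Nkx6-3 and its 5 nearest tested genes on each side, in chromosomal order, for I53A in set 1 and the QKO label in set 2. The gap to Nkx6-3 in kb is under each gene, and Nkx6-3 lies at -3.53 and -3.59 between Ank1 and Agpat6, whose values are between -0.81 and -0.20.

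Nkx6-3 belongs to the NK-like homeobox genes. Of 46 other such genes, 16 passed the filter on low counts in set 1, of which 8 were called higher and 0 lower, beside 18.1% and 17.4% of all tested genes, with a median log2 fold change of 1.24 beside 0.00 for all. At an unadjusted p under 0.05 also 0 were lower, by edgeR and by DESeq2. In set 2, 12 passed, of which 6 were called higher and 3 lower, beside 28.7% and 29.0% of all, with a median of 0.41. A gene near 0 in wild type passes this filter only through its mutant libraries and could not have been called lower, so these counts and medians lean towards increases and support no contrast with Nkx6-3.

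Tlx2, a homeobox gene of enteric and autonomic neurons, was at 0.225, 0.391 and 0.229 CPM in set 1 wild type and 2.55, 1.97 and 3.16 CPM in I53A, a log2 fold change of 3.12 ± 0.39 (SE, edgeR adjusted p = 0.000580). Msx1, a homeobox gene of the neural crest and limb, rose by 3.03 ± 0.46 on the log2 scale in I53A (SE, edgeR adjusted p = 0.00145), and by 3.65 without wild-type replicate 2. En2, a midbrain and hindbrain homeobox gene, rose in both sets, from 9.69 ± 0.500 to 41.3 ± 1.79 CPM in set 2 (SD, n = 3 each; log2 fold change 2.09 ± 0.08 SE, edgeR adjusted p = 5.11e-28). In set 1 the En2 log2 fold change was 1.69 ± 0.22 (SE, edgeR adjusted p = 0.000805).

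Vax2, a ventral eye homeobox gene, had the largest fall of the class in set 2 apart from Nkx6-3. It was at 1.91, 2.87 and 2.64 CPM in wild type and 0.214, 0.186 and 0.655 CPM in the libraries labelled QKO, a log2 fold change of -2.76 ± 0.37 (SE, edgeR adjusted p = 6.33e-09). Without QKO replicate 3, the highest of its group, the log2 fold change was -3.58. In set 1 Vax2 was at 2.70, 2.40 and 3.82 CPM in wild type and 2.72, 2.36 and 5.45 CPM in I53A, and the groups overlapped (log2 fold change 0.23 ± 0.36 SE, edgeR adjusted p = 0.664). Vax2 overlaps a gene name on the opposite strand. Hhex and Dlx4 were the other NK-like genes called lower in set 2, at -0.78 and -1.20, and Dlx4 was called higher in set 1, at 1.36.

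**Figure D4:**
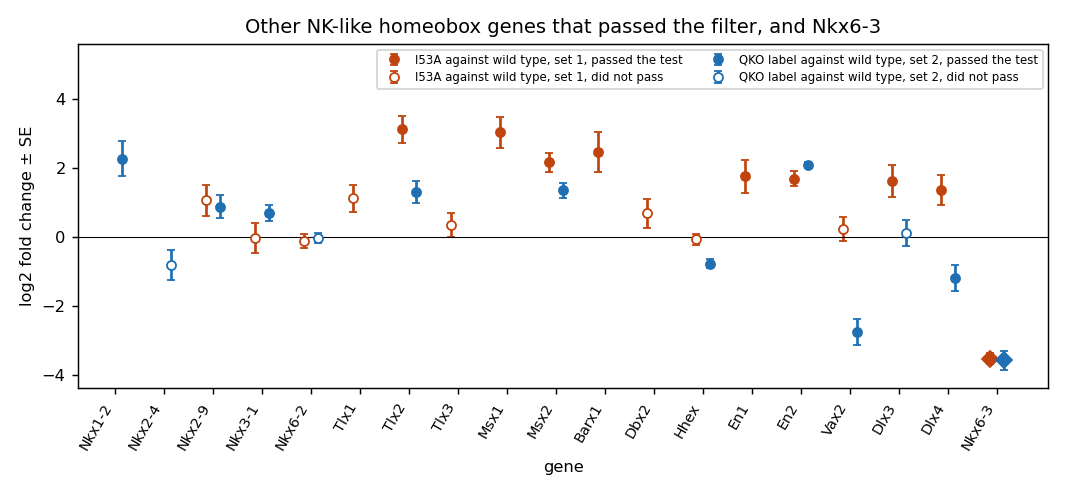
Log2 fold change against wild type with its SE for each other NK-like homeobox gene that passed the filter on low counts, and for Nkx6-3 (diamonds, far right, with no test). Filled points passed the test at an adjusted p under 0.05 and open points did not. The set 1 points of the class lie between -0.13 and 3.12, and the set 2 points between -2.76 and 2.27.

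Genes of the stomach and foregut endocrine lineages, where Nkx6-3 is known to act, moved in both directions. Of 40 listed, 24 were tested in set 1, of which 14 were called higher and 6 lower, beside 18.1% and 17.4% of all tested genes (median log2 fold change 1.19). In set 2, 18 were tested, of which 5 were called higher and 4 lower, near the 28.7% and 29.0% of all (median -0.17). As for the NK-like genes, a member near 0 in wild type passes the filter only through its mutant libraries. The counts and medians of this list therefore lean towards increases. In I53A the largest changes were in Foxa2 and Gata6, transcription factor genes of endoderm, which were higher by 5.63 ± 0.37 and 5.25 ± 0.26 on the log2 scale (SE, edgeR adjusted p = 2.70e-05 and 7.24e-06). Foxa2 had 5 counts in all in wild type, and without wild-type replicate 2 its value was 6.22. In set 2, Hnf4a, a nuclear receptor gene, rose by 2.04 ± 0.15, and the simple epithelial keratin gene Krt8 was at -1.18 ± 0.09 (SE, edgeR adjusted p = 9.33e-17 and 1.25e-16). In I53A these 2 genes went the other way, with Hnf4a at -1.35 and Krt8 at 1.65. Gata6 and Hnf4a each overlap a gene name on the opposite strand.

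Foxa2, Gata6 and Hnf4a are also markers of primitive endoderm, the extraembryonic lineage next to the epiblast, and Hnf4a was lower in I53A. The summed level of 24 primitive endoderm markers was 1699 to 1863 CPM in set 1 wild type and 4699 to 4980 CPM in I53A. The set 2 sums were 1247 to 1337 CPM in wild type and 1183 to 1223 CPM under the QKO label. Of these markers, 18 of 22 tested were called higher and 2 lower in set 1, beside 18.1% and 17.4% of all tested genes. In set 2, 9 of 19 were called higher and 4 lower, beside 28.7% and 29.0%. Hnf4a was among the 2 called lower in set 1 and the 9 called higher in set 2. Ttr was at 0 in every group except I53A. Markers near 0 in wild type pass the filter only through mutant libraries, so these counts of calls lean towards increases. The summed marker level was thus higher in I53A and slightly lower under the QKO label than in the wild type of the set. Its part in the Nkx6-3 values was not tested.

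The summed level of the 18 embryonic stem cell markers was 7677 to 7937 CPM in set 1 wild type and 6492 to 6736 CPM in I53A. The set 2 sums were 8243 to 8449 CPM in wild type against 9695 to 9835 CPM under the QKO label. In set 1, 1 of 18 markers was called higher and 7 lower, beside 18.1% and 17.4% of all tested genes, and in set 2, 11 of 18 higher and 5 lower, beside 28.7% and 29.0%. The sum moved in opposite directions in the sets, and its part in the Nkx6-3 values was not tested.

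The summed level of 23 fibroblast feeder markers was 1498 to 1599 CPM in set 1 wild type, 1480 to 1641 CPM in I53A, 2039 to 2292 CPM in set 2 wild type and 1823 to 1971 CPM in the libraries labelled QKO. Of those tested, 10 of 16 were called higher and 0 lower in set 1 by edgeR, beside 18.1% and 17.4% of all tested genes, with 2 lower at an unadjusted p under 0.05 and 2 called lower by DESeq2. In set 2, 9 of 13 were called higher and 1 lower, beside 28.7% and 29.0%. Here too, markers near 0 in wild type pass the filter only through mutant libraries, so these counts of calls lean towards increases. The markers at 0 in a whole group were Postn, Dcn and Prrx1 in set 1 wild type and Lum in I53A. In set 2 wild type 7 were at 0, namely Col3a1, Postn, Lum, Dcn, S100a4, Acta2 and Prrx1. Under the QKO label Lum and Dcn were at 0. The part of fibroblasts in the Nkx6-3 values was not tested.

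Genes of the ventral neural tube and hindbrain, the other site of Nkx6 action, were called in both directions in each set. Of 41 listed, 23 were tested in set 1, of which 6 were called higher and 6 lower, beside 18.1% and 17.4% of all tested genes (median log2 fold change 0.22). With the replicate block 10 were called higher and 7 lower, where 8798 of all 15536 tested genes were called in either direction. The filter leans these counts towards increases, as for the NK-like genes. In set 2, 15 were tested, of which 5 were called higher and 6 lower, beside 28.7% and 29.0% (median -0.19). Foxa2, given above, is on this list too. Evx1, a homeobox gene of spinal interneurons, was higher by 2.76 ± 0.46 on the log2 scale in I53A (SE, edgeR adjusted p = 0.00235). In set 2 the neural patterning gene Irx3 rose by 1.75 ± 0.46, and the Hedgehog-binding protein gene Hhip was at -1.18 ± 0.23 (SE, edgeR adjusted p = 0.00100 and 2.07e-05). Without wild-type replicate 1 the Irx3 value was 2.39. Evx1 and Irx3 each overlap a gene name on the opposite strand.

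All 6 genes of the Groucho/TLE family, from which NKX6 proteins recruit corepressors, were tested in both sets. In set 1, 1 of 6 was called higher and 0 lower by edgeR, beside 18.1% and 17.4% of all tested genes. Also 0 were lower at an unadjusted p under 0.05 or by DESeq2. With the replicate block 2 were called higher and 1 lower, where 8798 of all 15536 tested genes were called in either direction. In set 2, 4 of 6 were called higher and 1 lower, beside 28.7% and 29.0% of all. Aes, a short family member, rose by 0.47 ± 0.08 on the log2 scale in I53A (SE, edgeR adjusted p = 0.00316). In set 2 Tle6 rose by 0.91 ± 0.12, and Tle3 was at -0.34 ± 0.05 (SE, edgeR adjusted p = 3.99e-09 and 1.97e-08). The Tle3 call was lost when all 12 libraries shared an estimate of the spread (edgeR adjusted p = 0.0706). None of these corepressor genes changed by a size near that of Nkx6-3.

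Across the 12 libraries, the genes whose log2(CPM + 1) was most like that of Nkx6-3 were named by Pearson correlation among 12034 genes. They were Prdm1 (r = 0.988), the choline transporter-like gene Slc44a2 (r = 0.986), Rragd, a Rag GTPase gene of lysosomal nutrient signalling (r = 0.986), and the myotubularin-related gene Mtmr12 (r = 0.985). The next were the WD-repeat protein gene Tbl2 (r = 0.984), the methyl-CpG-binding zinc finger gene Zbtb38 (r = 0.982), the coiled-coil protein gene Tacc1 (r = 0.982) and the RNA helicase gene Mov10 (r = 0.977). These libraries fall into 4 groups, so r mostly reflects the order of the group means and is given as a description.

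The likeness is in order, not in size. Tbl2 had log2 fold changes of -0.42 and -0.36, Tacc1 of -0.42 and -0.41, and Mtmr12 of -0.66 and -0.53. Slc44a2 was at -1.02 in both sets, Rragd at -1.21 and -0.91, Zbtb38 at -1.19 and -1.04, and Mov10 at -1.16 and -0.68. Prdm1 came nearest to the Nkx6-3 values of -3.53 and -3.59. When each set was centred first, which takes out the difference between the set means, only Mtmr12 of these 8 genes remained among the top 8, and Scd2, Utrn and Zfp512 led. Rragd and Zbtb38 overlap other gene names.

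**Figure D5:**
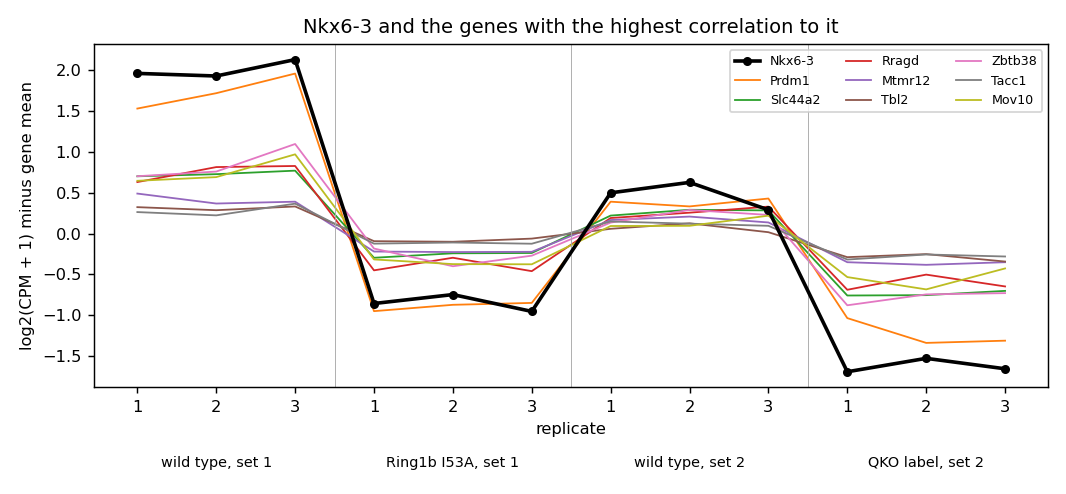
Log2(CPM + 1) minus each gene's mean over the 12 libraries, by group and replicate, for Nkx6-3 (thick black line with points) and the 8 genes with the highest Pearson correlation to it. All 9 genes are highest in set 1 wild type and second in set 2 wild type, and Nkx6-3 has the widest range.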

How the data were processed

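RNA-seq libraries of R1 mouse embryonic stem cells were analysed from 1 deposited table of raw counts per library. TRIzol extraction and TruSeq library preparation are recorded in the labels' protocols. Per the file headers, the authors counted fragments with featureCounts 1.6.3 in paired mode by gene name on GENCODE annotation of NCBIM37 (mm9), with no option for strand, for several alignments or for overlapping genes. The alignment names of set 1 carry tophat and unique, and those of set 2 do not. Bowtie2, SAMtools, HISAT2, featureCounts and DESeq2 are listed in the submitters' processing notes, with the builds mm9 and dm6, and which aligner served which set is not stated there.

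Counts were fitted within each set with edgeR 4.0.16 (R 4.3.3, filterByExpr, TMM, robust quasi-likelihood test, 2-sided, Benjamini-Hochberg over all genes tested), and the difference between sets in a fit of all 12 libraries. The code was tested on simulated data. DESeq2 1.42.0, other scalings and filters, left-out replicates and a replicate block were alternatives. CPM were scaled by TMM within a set or over 12 libraries, and CPM per kb divides by counted exon length. Intervals cover counting error only, since no molecular identifiers are given.

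Same-numbered libraries of set 1 deviated together from their group means (r = 0.34, 0.40 and 0.61), so the numbers were taken to pair them in the block alternative only. Replicates 1 and 2 also deviated together across numbers (0.30 and 0.33). A pairing of replicates 1 and 2 by number cannot be told apart from replicate 3 standing apart in both groups. In set 2 the values were 0.03, -0.01 and 0.08.

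Named genes were Nkx6-3, its paralogs, the 5 nearest tested genes on each side, 8 genes most like it and 8 other genes lower in both with the largest summed fall (standard symbols only), the targeted genes, and up to 2 called members of each list and set with the largest change and a mean of 1 CPM or more in the higher group. Hhex and Dlx4 were named after their values were seen, as the rest of a count of 3. Members and lists were chosen with earlier results of these data known.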

Additional observations from a re-analysis of the deposited data

Results flagged for a closer look

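The neighbours, paralogs, targeted genes and list members named by the fixed rule, which leaves out Hhex and Dlx4, were compared between the sets. For 16 of them the change in I53A differed from the change in the libraries labelled QKO. This used edgeR's test of the difference itself, adjusted over 16501 genes, of which 5961 (36.1%) were called. The genes named for their likeness to Nkx6-3 or for being lower in both sets were chosen by these values and are given no test. The list members were named for a large change in a set, which favours a difference between the sets. Their adjusted p-values and the count of 16 are therefore descriptions. Values are the I53A change minus the QKO change on the log2 scale, with SE.

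Among the chromosome 8 neighbours, the difference was -0.50 ± 0.09 for Ikbkb (edgeR adjusted p = 0.000697), -1.23 ± 0.13 for Ap3m2 (3.62e-06), -0.40 ± 0.10 for Myst3 (0.00565), -1.17 ± 0.10 for Sfrp1 (4.66e-07) and -2.47 ± 0.21 for Zmat4 (6.44e-07). Of these 5, Zmat4 was the 1 gene called in opposite directions in the 2 sets.

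Among the NK-like homeobox genes, it was 1.84 ± 0.53 for Tlx2 (edgeR adjusted p = 0.0146), which rose in both sets, 2.75 ± 0.92 for Msx1 (0.0305), and 3.01 ± 0.58 for Vax2 (0.000957), which was called in set 2. Among the stomach and foregut genes, it was 5.53 ± 0.32 for Gata6 (edgeR adjusted p = 1.37e-08), -3.37 ± 0.20 for Hnf4a (1.46e-08) and 2.85 ± 0.16 for Krt8 (1.30e-08), and the latter 2 were called in opposite directions. It was 4.32 ± 1.58 for Foxa2 (edgeR adjusted p = 0.0450), and Foxa2 and Msx1 were too low in set 2 to be tested there. Among the corepressor genes, it was 0.25 ± 0.09 for Aes (edgeR adjusted p = 0.0401) and -1.07 ± 0.18 for Tle6 (0.000248).

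Among the targeted genes, it was -0.80 ± 0.09 for Rnf2 (edgeR adjusted p = 1.14e-05) and 1.66 ± 0.36 for Hist1h1c (0.00221). Hist1h1c was called higher in I53A, at 1.49 ± 0.38 (SE, edgeR adjusted p = 0.016). It was not called in set 2, at -0.14 ± 0.13 (SE, edgeR adjusted p = 0.361).

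For Nkx6-2, the difference was -0.09 ± 0.29 (edgeR adjusted p = 0.836).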

How the results depend on the processing

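The fall of Nkx6-3 kept its direction under all alternatives, which were other scalings and filters, DESeq2, all 12 libraries in a fit, a replicate block and left-out libraries. Without 1 library at a time its log2 fold change lay between -3.62 and -3.46 in set 1 and between -3.73 and -3.47 in set 2. The replicate 3 pair of set 1 alone gave -3.86, a move of more than the replicate spread. That value rests on 17 counts in the I53A library, with an exact Poisson interval of 9.9 to 27.22 counts, and the cause was not tested. With the replicate block it was -3.52 and -3.57. The block raised the genes called in set 1 from 5512 to 8798 and those lower in both sets from 1138 to 1815, and replicates 1 and 2 alone gave 8343. In set 2, where the numbers did not pair the libraries, the block gave 9080 calls against 8903. The Groucho/TLE genes called in set 1 rose from 1 to 3 with the block and with replicates 1 and 2 alone, 2 alternatives added after the data were seen, as were those for the other lists. Centring each set left 1 of 8 most similar genes, and log2(CPM + 0.1) left 6.

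Leaving out 1 library at a time, genes called lay between 3828 and 5917 in set 1 and between 8071 and 8743 in set 2. Calls of the neighbours numbered 13 to 17 of 20 over all alternatives, against 16. Ank1 in set 2 passed the edgeR test with the block (adjusted p = 0.0487) and without QKO replicate 1, and Myst3 in set 2 lost its call with all 12 libraries (0.0591). Values near 0 changed sign, none of them called. Leaving out 1 library at a time, Nkx6-2 ranged from -0.31 to 0.025 in set 1 and from -0.20 to 0.16 in set 2, Ikbkb in set 2 from -0.028 to 0.0075, and Gins4 in set 2 from -0.057 to 0.012. With library totals only, Ikbkb in set 2 was 0.019 and Gins4 0.0033, and with 1 CPM in 3 libraries Ikbkb was 0.0023. At 8 counts per library, the Nkx6-3 level in the libraries labelled QKO is limited by counting error.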
